A study of Danio rerio with 24 samples.

Results

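A group of 162 genes was higher in endodermal cells of zebrafish embryos treated with retinoic acid (RA) than in those of solvent-treated embryos at both stages sampled. On average over the stages these genes were not enriched in control endoderm. Members were chosen from the data. L stands for the mean over a group's 3 libraries of log2(CPM+1), where CPM is the read count scaled to the library total, a total taken over the library's gene counts with the single most abundant gene left out. A gene was taken when L was at least 1 higher in RA than in DMSO cells at both stages, and when every RA library lay above every DMSO library of its stage. Its excess in DMSO endodermal over non-endodermal cells, averaged over the stages, had to be under 1, and it could not be lowered by 1 or more at both stages with BMS493, which acts on RA receptors as an inverse agonist. Of 33736 genes, 340 met the first condition, 238 also the second and 174 also the third, and 162 remained after 12 had been left out by the last. The differences between RA and DMSO, between DMSO and non-endodermal and between BMS493 and DMSO cells were therefore used to choose the members. They are given below as descriptions without a test. A set of 40 genes that passed the other conditions but were enriched in endoderm was set apart.

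The 24 libraries came from sorted cells of embryos of the Tg(sox17:GFP) line, in which GFP marks endodermal cells. GFP+ cells of embryos treated with RA, with BMS493 or with the solvent DMSO, and GFP- non-endodermal (NE) cells of the DMSO-treated embryos, were each collected at the 3-somite (3-S) and the 8-somite (8-S) stage, with 3 libraries per group. Treatment began at early cleavage and ended at the 3-S stage, and by the study's methods the 8-S embryos were washed and raised in medium without the compounds, so that stage and time since washing cannot be told apart. NE cells hold every GFP- cell of the embryo, neural, mesodermal and epidermal, so that their levels are averages over many cell types. Each library is a pool of sorted cells, in which more cells that carry an RNA and more RNA per cell cannot be told apart. Nothing says that the 3 replicates came from separate clutches, so that p-values measure only the spread between these samples, which may be technical.

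RA is made from vitamin A. Retinol is stored as esters by the acyltransferase Lrat, oxidised to retinaldehyde and then to RA by aldehyde dehydrogenases such as Aldh1a2, and RA is broken down by Cyp26 enzymes. Inside the nucleus RA binds receptors (RAR, with RXR as partner) that sit on DNA and switch neighbouring genes, among them hox genes, which give cells their position along the body axis in all germ layers. In vertebrate endoderm RA sets the boundary between pharynx and the more posterior liver and pancreas region.

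Libraries held between 9971059 and 17806766 reads assigned to genes, so that 3 counts, the level below which a gene could not be told from absent, corresponded to 0.209 to 0.39 CPM. That limit covers counting error only. The gene left out, ENSDARG00000080337, took 15.5% to 32.6% of the counts. Pan-endodermal markers were higher in GFP+ than in NE libraries: foxa3 (ENSDARG00000012788) had 255 to 516 CPM in RA 3-S libraries, 404 to 604 CPM in DMSO 3-S libraries and 5.95 to 17.6 CPM in NE 3-S libraries, and the 5 endodermal markers summed to 2008 to 2517, 2841 to 3781 and 217 to 287 CPM in the same groups. This sum was thus lower in every RA than in every DMSO 3-S library. At 8-S the RA and DMSO sums overlapped, at 1807 to 2677 and 2089 to 3466 CPM. Of the 5, 0 were called with RA at either stage (DESeq2, adjusted p under 0.01), and the cause of the lower sum was not tested. RA libraries varied more than those of the other groups over the members. Members were chosen to be higher in RA than in DMSO cells, and log2(CPM+1) compresses the spread of low values. In DMSO cells 45 members averaged under 1 CPM at both stages. The larger spread with RA therefore cannot be told apart from the choice of members. The median SD of log2(CPM+1) was 0.59 in RA 3-S and 0.57 in RA 8-S, against 0.37 in DMSO 3-S and 0.35 in DMSO 8-S, and at most 0.37 in any BMS493 or NE group. Replicate 1 of RA 8-S stood apart, with a median of -0.42 from its group mean over the members, whereas the other libraries lay between -0.16 and 0.32. Without that library the same rule selected 260 genes, 157 of them among the 162, and the median RA change of the 162 at 8-S was 1.81, against 1.59 with it.

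Values just inside and just outside the limits were close. The smaller of the 2 RA changes was 1.001 in pgam1a (ENSDARG00000005423), 1.002 in prr15lb (ENSDARG00000029308) and 1.01 in si:dkey-196j8.2 (ENSDARG00000093874), all inside, and 0.982 in ENSDARG00000088310 and 0.98 in PIK3CG (ENSDARG00000017757), outside. At the limit on endodermal enrichment, tmem88b (ENSDARG00000069388), tmem45b (ENSDARG00000056239) and cyp2ad3 (ENSDARG00000022650) were inside with DMSO minus NE differences of 0.962, 0.953 and 0.945, and hmga2 (ENSDARG00000069912), macc1 (ENSDARG00000040717) and itpr1a (ENSDARG00000014655) outside with 1.01, 1.06 and 1.09. At the limit on BMS493, the smaller of the 2 falls was -0.97 in hoxb6b (ENSDARG00000026513), -0.95 in znf503 (ENSDARG00000018492) and -0.93 in hoxb8b (ENSDARG00000054025), which stayed in, and -1.12 in si:dkey-172f14.2 (ENSDARG00000098045), -1.17 in skap1 (ENSDARG00000001498) and -1.21 in masp1 (ENSDARG00000068726), which did not.

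Differences between RA and DMSO cells are given on the log2(CPM+1) scale, which understates the change of genes with few counts. At 3-S the median RA minus DMSO difference was 1.94 (quartiles 1.56 and 2.61, highest 6.92), and at 8-S it was 1.59 (quartiles 1.29 and 2.08, highest 5.34). Over the 16528 genes with a mean of at least 1 CPM in some group, which include all 162 members, the medians were 0.01 and -0.09. 10 members had differences of at least 3 at both stages, and 78 stayed under 2 at both. The difference was larger at 3-S in 124 members and larger at 8-S in 38. Across the 162 genes, which share their libraries, the differences at both stages correlated with r = 0.79. In the fit over all genes, from the same contrasts that chose them, 121 members passed an adjusted p of 0.01 (DESeq2) at 3-S, where 1.93% of all genes tested were called higher, and 90 at 8-S, where 0.953% were. These counts follow from the choice. Together the members made up 7292 to 9480.0 CPM in RA 3-S libraries, against 1309 to 1450.2 CPM in DMSO 3-S libraries.

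**Figure D1:**
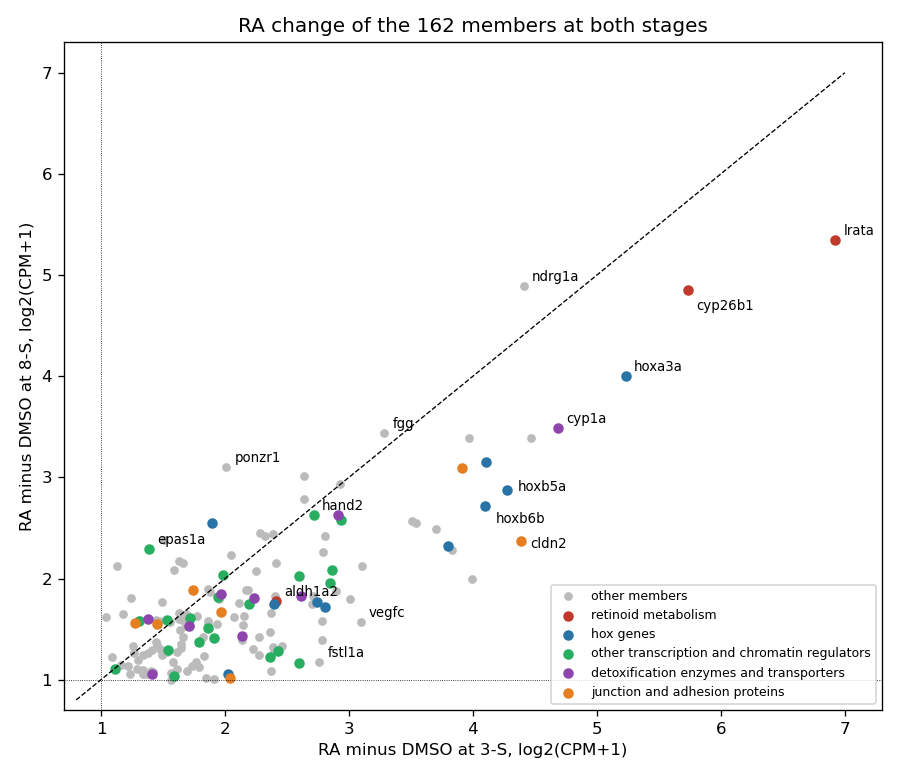
RA minus DMSO difference of each of the 162 members at 3-S (horizontal axis) and at 8-S (vertical axis), both on the log2(CPM+1) scale, with dotted lines at the limit of 1 and a dashed line of equality. Most members, 124, lie below the dashed line, and lrata and cyp26b1 lie farthest out, at 6.92 and 5.73 at 3-S.

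Of the retinoid metabolism genes, lrata and cyp26b1 had the largest differences of all members at 3-S. lrata (ENSDARG00000037278), the acyltransferase that stores retinol as esters, had 438, 433 and 125 CPM in the RA 3-S libraries, against 0.729, 1.67 and 1.94 CPM in DMSO 3-S. At 8-S it had 61.7, 278 and 538 CPM in RA and 4.68, 4.02 and 3.94 CPM in DMSO libraries, so that its mean was 229.9-fold higher with RA at 3-S and 69.4-fold higher at 8-S. The lowest RA library was still far above every DMSO and NE library, which reached at most 8.94 CPM. cyp26b1 (ENSDARG00000077121), which breaks RA down, had 683, 236 and 223 CPM in RA 3-S libraries, against 5.02, 2.81 and 9.48 CPM in DMSO 3-S and 67, 28.4 and 37.2 CPM in NE 3-S libraries. Its RA level was lower at the later stage, at 29.9, 174 and 199.7 CPM in RA 8-S libraries, against 2.73, 3.43 and 1.72 CPM in DMSO 8-S. aldh1a2 (ENSDARG00000053493), the main enzyme that makes RA in the embryo, had smaller differences. It had 28.3, 65.1 and 51 CPM in RA 3-S and 3.73, 16.4 and 7.11 CPM in DMSO 3-S libraries, and 17.9, 67.5 and 26 CPM in RA 8-S and 6.88, 8.04 and 11.2 CPM in DMSO 8-S libraries, differences of 2.41 at 3-S and 1.78 at 8-S. Levels of aldh1a2 with RA overlapped those of NE cells, 42.6, 45.8 and 35.1 CPM at 3-S, whereas those of lrata and cyp26b1 with RA lay above every NE library of the same stage, for cyp26b1 at 8-S by a small margin in replicate 1 (29.9 CPM, against at most 27.9 CPM in NE 8-S).

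Of the other genes on a list of RA metabolism and signalling, some moved the same way and some the opposite way. Out of 46 genes on the list, 40 were tested at 3-S, of which RA raised 8 and lowered 6 (DESeq2, adjusted p under 0.01), and at 8-S 6 and 6 of 36. The genes raised include the 3 members, whose calls follow from their choice. The degrading enzyme cyp26a1 (ENSDARG00000033999) and the retinaldehyde reductases dhrs3a (ENSDARG00000044982) and dhrs3b (ENSDARG00000044803) also rose, their log2 fold changes at 3-S being 4.37 (SE 0.36, DESeq2 adjusted p = 4.48e-30), 3.47 (SE 0.43, DESeq2 adjusted p = 2.62e-13) and 2.12 (SE 0.32, DESeq2 adjusted p = 8.99e-09). They missed the limit on endodermal enrichment, as DMSO endoderm exceeded NE cells by 1.52, 1.40 and 1.75. The paper also lists dhrs3a among the genes lowered by BMS493 at both stages, so that this need not be the only limit it missed. The third degrading enzyme of the family, cyp26c1 (ENSDARG00000056029), fell by 7.22 (SE 0.62, DESeq2 adjusted p = 6.78e-28) on the log2 scale at 3-S, and so did the receptor rarga (ENSDARG00000034117), by 6.22 (SE 0.73, DESeq2 adjusted p = 4.3e-15).

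The members held 10 hox genes, hoxa1a, hoxa3a, hoxa5a, hoxb2a, hoxb4a, hoxb5a, hoxb6a, hoxb6b, hoxb8b and hoxc4a, all from the anterior and middle part of the clusters. Their RA minus DMSO differences ranged from 1.89 to 5.23 at 3-S and from 1.06 to 4.0 at 8-S, with medians of 3.30 and 2.44. hoxa3a (ENSDARG00000036231) had 403, 405 and 424 CPM in RA 3-S libraries, against 15.8, 6.25 and 9.81 CPM in DMSO 3-S and 61.9, 59.4 and 68.1 CPM in NE 3-S libraries. The RA libraries lay close together, and the DMSO libraries lay below the NE ones. hoxb5a (ENSDARG00000013057) had 449, 277 and 283 CPM in RA 3-S libraries, against 15.6, 15.8 and 16.5 CPM in DMSO 3-S and 18.2, 14.4 and 17 CPM in NE 3-S libraries, so that DMSO and NE cells overlapped. hoxb6b had 507, 625 and 422 CPM in RA 3-S and 37.6, 32.9 and 19.4 CPM in DMSO 3-S libraries, and 255, 432 and 486 CPM in RA 8-S and 61.1, 60.04 and 49.4 CPM in DMSO 8-S libraries. In NE 8-S libraries it had 15.2, 20.5 and 24.4 CPM, below every DMSO 8-S library. The paper lists it as enriched in endoderm at that stage. In 9 of the 10 hox members the RA minus DMSO difference was smaller at 8-S. The exception was hoxc4a (ENSDARG00000070338), with 13.7, 16.3 and 45.1 CPM in RA 8-S libraries, against 2.47, 2.72 and 3.54 CPM in DMSO 8-S, a difference of 2.55 after 1.89 at 3-S. Its highest RA library, replicate 3, lay well above the others.

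On the whole hox list, calls in both directions were found. Of 36 hox genes tested at 3-S, RA raised 13 and lowered 12, and of 35 tested at 8-S, it raised 8 and lowered 10 (DESeq2, adjusted p under 0.01). By the symbols used for the list, which miss hoxa1a, hoxa3a and hoxa5a, 7 of those called higher at 3-S and 4 of those at 8-S were members, whose calls follow from their choice. Of those called lower, 10 at 3-S and 8 at 8-S belonged to paralogue groups 9 to 13, at the posterior end of the clusters, and none of those called higher did. At 3-S hoxd10a (ENSDARG00000057859) fell by 7.15 (SE 0.81, DESeq2 adjusted p = 2.91e-16) and hoxa11b (ENSDARG00000007009) by 6.38 (SE 0.69, DESeq2 adjusted p = 8.31e-18) on the log2 scale, and the anterior genes hoxa2b (ENSDARG00000023031) and hoxd3a (ENSDARG00000059280) were also called lower, with -1.97 (SE 0.40, DESeq2 adjusted p = 6.3e-05) and -3.00 (SE 0.41, DESeq2 adjusted p = 4.89e-11). Of the hoxb genes outside the 162, hoxb5b (ENSDARG00000054030), hoxb8a (ENSDARG00000056027) and hoxb3a (ENSDARG00000029263) passed the threshold upwards at both stages. hoxb5b, at a DMSO minus NE difference of 1.13, had log2 fold changes of 4.40 (SE 0.27, DESeq2 adjusted p = 5.22e-56) at 3-S and 3.59 (SE 0.27, DESeq2 adjusted p = 2.44e-37) at 8-S. Those of hoxb8a and hoxb3a were 2.55 (SE 0.44, DESeq2 adjusted p = 7.12e-07) and 2.09 (SE 0.31, DESeq2 adjusted p = 4.53e-09) at 3-S.

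**Figure D2:**
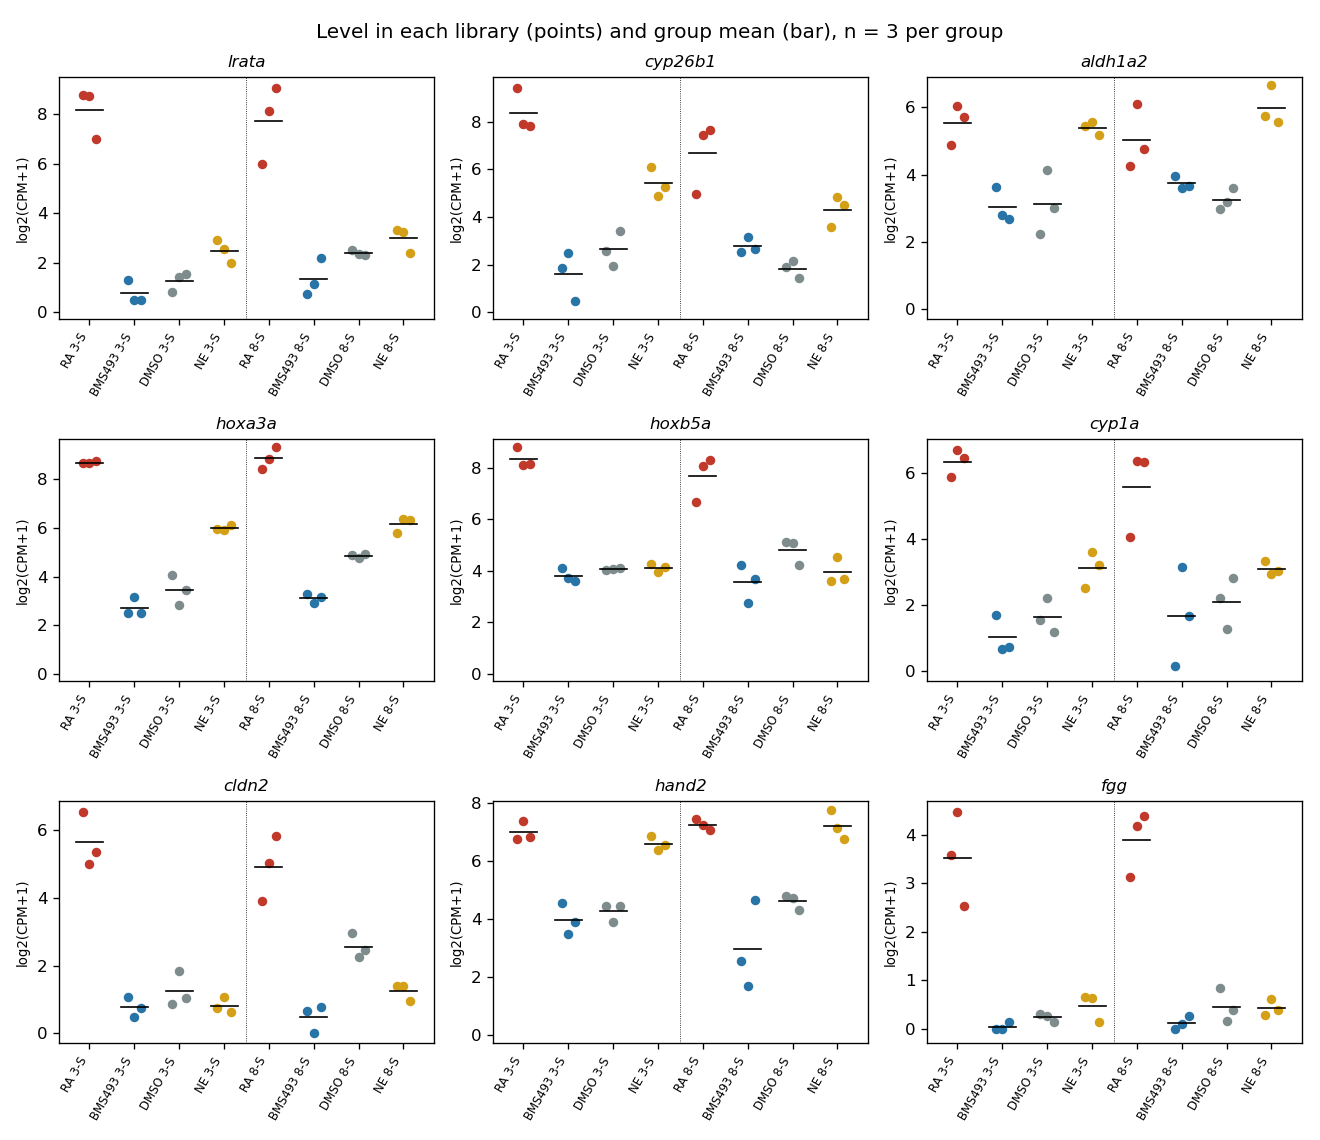
Level of 9 members in every library as log2(CPM+1), 3-S libraries left and 8-S libraries right of the dotted line, with the mean of each group of 3 as a bar. In every panel all RA points lie above all DMSO points of their stage, which the choice of members required. In the panels of aldh1a2 and hand2 the RA points overlap the NE points at one or both stages.

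Besides the hox genes, 21 members encode transcription or chromatin regulators, with RA minus DMSO differences of 1.11 to 2.94 at 3-S and 1.03 to 2.63 at 8-S. hand2 (ENSDARG00000008305), a bHLH factor of heart, fin and lateral plate mesoderm, had 106, 164 and 111 CPM in RA 3-S libraries, against 20.6, 13.7 and 20.9 CPM in DMSO 3-S and 115, 81.4 and 92.1 CPM in NE 3-S libraries. At 8-S it had 173, 147 and 133 CPM in RA, 26.8, 25.5 and 18.7 CPM in DMSO and 214, 139 and 106 CPM in NE libraries, so that the RA libraries overlapped the NE ones at both stages. ascl1a (ENSDARG00000038386), a proneural bHLH factor, had 6.91, 17.5 and 13.3 CPM in RA 3-S and 0.486, 1.35 and 0.539 CPM in DMSO 3-S libraries. ehf (ENSDARG00000052115), an ETS factor of epithelia, had 12.4, 9.84 and 3.09 CPM in RA 3-S libraries, against 0, 0 and 0.323 CPM in DMSO 3-S, where no library passed 3 counts, and 1.34, 6.86 and 18 CPM in RA 8-S libraries, against 0.26, 0 and 0.303 CPM in DMSO 8-S. nr0b2a (ENSDARG00000044685), an orphan nuclear receptor without a DNA-binding domain, had 57.6, 34.8 and 29.6 CPM in RA 3-S and 9.89, 9.37 and 8.19 CPM in DMSO 3-S libraries. meis2b (ENSDARG00000077840), whose TALE proteins bind DNA together with Hox proteins, had 313, 255 and 268 CPM in RA 3-S and 138, 77.7 and 81.2 CPM in DMSO 3-S libraries. It was the only one of 11 TALE genes tested that was called higher with RA at either stage, and none was called lower (DESeq2, adjusted p under 0.01). As meis2b is a member, its calls follow from its choice. On 2 further lists, RA raised 5 and lowered 0 of 14 orphan nuclear receptors at 3-S, and raised 10 and lowered 3 of 32 pancreatic and endodermal regulators. At 8-S it raised 2 and lowered 0 of 14, and raised 4 and lowered 1 of 31. The lists held 1 and 2 members, whose calls follow from their choice. ripply1 (ENSDARG00000054103), a corepressor known from somites, had 462, 360.3 and 176 CPM in RA 3-S and 46.7, 42.1 and 37.5 CPM in DMSO 3-S libraries. Chromatin regulators among the members were bmi1a (ENSDARG00000006010), a Polycomb protein, with differences of 2.60 at 3-S and 2.02 at 8-S, and dnmt3aa (ENSDARG00000005394), a DNA methyltransferase, with 2.60 at 3-S and 1.16 at 8-S. foxi3a (ENSDARG00000055926), a regulator of skin ionocytes, rested on 1 library per stage, with 10.4, 0.354 and 0.172 CPM in RA 3-S and 0.869, 1.35 and 15.2 CPM in RA 8-S libraries, against 0.081, 0 and 0.108 CPM in DMSO 3-S and 0.52, 0.355 and 0.303 CPM in DMSO 8-S libraries. wt1a (ENSDARG00000031420), a kidney and mesothelium factor, likewise had 1 high library, with 2.39, 3.01 and 18.3 CPM in RA 3-S, against 0, 0.52 and 0.108 CPM in DMSO 3-S.

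Of 7 markers on a list of lateral and intermediate mesoderm, of which hand2 and cdh17 (ENSDARG00000005112) are members, 3 of 7 tested were called higher with RA at 3-S and 0 lower, and 3 of 6 tested were called higher and 1 lower at 8-S (DESeq2, adjusted p under 0.01). Those called higher were both members, whose calls follow from their choice, and osr1, and the one called lower was NKX2-5. Together the 7 summed to 571 to 647 CPM in RA 3-S and 99.8 to 112 CPM in DMSO 3-S libraries, and to 474 to 515 CPM in RA 8-S and 107 to 150.4 CPM in DMSO 8-S libraries. Without the members the other 5 summed to 413 to 516 CPM in RA 3-S and 78.4 to 89.7 CPM in DMSO 3-S libraries. Most of this sum was osr1 (ENSDARG00000014091), at 353 to 447 CPM in RA 3-S and 55.1 to 77.3 CPM in DMSO 3-S libraries and 12.2 to 21.1 CPM in NE 3-S libraries, so that it was higher in DMSO endoderm than in NE cells. lhx1a (ENSDARG00000014018) had 44.9 to 65.2 CPM in RA 3-S, 8.62 to 23.1 CPM in DMSO 3-S and 20.7 to 29.2 CPM in NE 3-S libraries. TBX5 (ENSDARG00000024894) had 0 to 0.177 CPM in RA 3-S and 0.081 to 0.539 CPM in DMSO 3-S libraries. NKX2-5 (ENSDARG00000018004) had 0.126 to 0.266 CPM in RA 3-S and 0.081 to 0.52 CPM in DMSO 3-S libraries, and 0 to 0.316 CPM in RA 8-S and 1.54 to 3.64 CPM in DMSO 8-S libraries. Paraxial mesoderm markers, 11 without the member aldh1a2, summed to 5.66 to 19.6 CPM in RA 3-S and 112 to 188 CPM in DMSO 3-S libraries, and neural plate markers, 14 genes, to 177 to 266 and 468 to 562 CPM, so that both were lower with RA. Axial mesoderm markers, 5 genes, summed to 512 to 3079 CPM (median 653 CPM) in RA 3-S and 435 to 679 CPM in DMSO 3-S libraries. Most of this sum was col2a1a (ENSDARG00000069093), at 504 to 3051 CPM in RA 3-S and 424 to 666 CPM in DMSO 3-S libraries. Of the 5, RA raised 0 at either stage and lowered 1 at 3-S and 2 at 8-S (DESeq2, adjusted p under 0.01). Among 8 neural crest genes tested none was called with RA at either stage. Of 12 neuronal, 11 blood and endothelial and 12 epidermal markers tested at 3-S, RA raised 2, 0 and 1 and lowered 2, 1 and 2 (DESeq2, adjusted p under 0.01). Neuronal markers, 13 genes, summed to 141 to 185 CPM in RA 3-S and 444 to 582 CPM in DMSO 3-S libraries. In NE 3-S libraries they summed to 235 to 331 CPM, so that this sum was higher in DMSO endoderm than in NE cells. Epidermal markers, 11 without the member foxi3a, summed to 325 to 793 CPM in RA 3-S and 806 to 1184 CPM in DMSO 3-S libraries. At 3-S the neuronal and epidermal sums were thus both lower with RA. At 8-S the neuronal sum was again lower, at 154 to 216 CPM in RA and 446 to 613 CPM in DMSO libraries. The epidermal sums overlapped there, at 306 to 1046 and 898 to 1173 CPM. Those of blood and endothelium overlapped at 3-S, at 136 to 265 and 214 to 298 CPM. The part of other cells in the levels of the members was not tested.

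Secreted ligands and their modulators numbered 6 among the members and receptors 6. fstl1a (ENSDARG00000015559), a secreted follistatin-like glycoprotein, had 514, 532 and 458 CPM in RA 3-S and 56, 107 and 64.8 CPM in DMSO 3-S libraries, and 232, 475 and 293 CPM in RA 8-S and 179, 144 and 107 CPM in DMSO 8-S libraries. vegfc (ENSDARG00000069640), the growth factor of lymphatic vessels, had 34.7, 51.4 and 103 CPM in RA 3-S and 2.92, 12.2 and 5.07 CPM in DMSO 3-S libraries. The cell-surface protein gene nrp1b (ENSDARG00000027290), a neuropilin, had 89.8, 75.2 and 61.2 CPM in RA 3-S and 7.78, 19.5 and 15.4 CPM in DMSO 3-S libraries. With RA both vegfc and nrp1b lay above the NE libraries as well, which reached at most 5.03 and 11.6 CPM at 3-S. sst1.1 (ENSDARG00000040799), which encodes the hormone somatostatin, had 5.78, 30.5 and 2.23 CPM in RA 3-S and 0, 0.416 and 0.108 CPM in DMSO 3-S libraries, with 1 RA library far above the others, and a second somatostatin gene, sst2 (ENSDARG00000014190), differed by 1.69 at 3-S and 1.65 at 8-S. Of the ligands, bmp5 (ENSDARG00000004965) and wnt7aa (ENSDARG00000044827) differed by 2.71 at 3-S and 1.83 at 8-S and by 1.83 at 3-S and 1.42 at 8-S. The histamine receptor hrh3 (ENSDARG00000035942) had 15.5, 41 and 20.02 CPM in RA 3-S and 0.324, 0.833 and 1.08 CPM in DMSO 3-S libraries. The Wnt receptor ror1 (ENSDARG00000015176), the netrin receptor unc5db (ENSDARG00000061541), the semaphorin receptor plxnb1a (ENSDARG00000075821) and the glutamate receptor subunit grin3ba (ENSDARG00000005364) differed by 1.66, 2.25, 2.39 and 2.29 at 3-S. On a wider list of signalling ligands and receptors, RA raised 6 and lowered 16 of 75 genes tested at 3-S (DESeq2, adjusted p under 0.01). At 8-S it raised 2 and lowered 15 of 73. Of the 162, only wnt7aa was on this list, and its call at 3-S follows from its choice.

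Enzymes and transporters that handle foreign compounds and steroids made up 9 members. cyp1a (ENSDARG00000026039), the monooxygenase best known as a target of the aryl hydrocarbon receptor, had 57.6, 103 and 86.4 CPM in RA 3-S and 1.94, 3.64 and 1.29 CPM in DMSO 3-S libraries, and 15.9, 80.9 and 80.4 CPM in RA 8-S and 3.64, 1.42 and 6.07 CPM in DMSO 8-S libraries. Its relative cyp1c1 (ENSDARG00000058980) had 8.68, 2.39 and 1.03 CPM in RA 3-S libraries and at most 1 count in any DMSO library, and 0.079, 5.93 and 5.25 CPM in RA 8-S libraries, of which replicate 1 held a single count. gstm3 (ENSDARG00000088116), a glutathione transferase, had 92.4, 82.6 and 54.1 CPM in RA 3-S and 13.7, 6.35 and 8.3 CPM in DMSO 3-S libraries. The sulfotransferase sult6b1 (ENSDARG00000086826), the export pump abcc2 (ENSDARG00000014031) and the cytochromes cyp2p6 (ENSDARG00000042978), cyp2ad3 and cyp2ad6 (ENSDARG00000042956) differed by 2.23, 2.14, 2.61, 1.38 and 1.71 at 3-S.

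Genes of plasma proteins of the kind made by liver reached at most 1.11 CPM in any DMSO library. fgg (ENSDARG00000037281), the gamma chain of fibrinogen, had 10.9, 21.1 and 4.81 CPM in RA 3-S libraries and 7.74, 17.2 and 19.8 CPM in RA 8-S libraries, against 0.243, 0.208 and 0.108 CPM in DMSO 3-S and 0.779, 0.118 and 0.303 CPM in DMSO 8-S libraries, and stayed below 1 CPM in every BMS493 and NE library. cfb (ENSDARG00000055278), complement factor B, had 11.3, 7.36 and 4.55 CPM in RA 3-S and 0, 0.208 and 0.431 CPM in DMSO 3-S libraries, and the complement genes cfhl4 (ENSDARG00000094496) and c8g (ENSDARG00000032098) differed by 2.32 at 3-S and 2.42 at 8-S and by 1.49 at 3-S and 1.77 at 8-S. In fgg, cfhl4 and c8g the difference was larger at 8-S than at 3-S.

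Junction and adhesion genes numbered 7. cldn2 (ENSDARG00000044387), a claudin that forms pores for cations between epithelial cells, had 91.5, 31.4 and 40.3 CPM in RA 3-S and 0.81, 2.6 and 1.08 CPM in DMSO 3-S libraries, and 13.9, 31.6 and 56.1 CPM in RA 8-S and 6.76, 3.78 and 4.45 CPM in DMSO 8-S libraries. cdh17, a cadherin of gut and kidney epithelium, had 52.4, 37.3 and 20.5 CPM in RA 3-S and 2.11, 0.729 and 1.4 CPM in DMSO 3-S libraries. The paralogues jam2a (ENSDARG00000058996) and jam2b (ENSDARG00000079071) overlapped NE cells with RA or lay below them. With RA, jam2b had 3.77, 5.05 and 3.95 CPM at 3-S, against 0.405, 1.46 and 0.108 CPM in DMSO 3-S and 9.55, 15.7 and 12.2 CPM in NE 3-S libraries. Among 14 metabolic enzymes and carriers, enpep (ENSDARG00000057064), a peptidase that cleaves angiotensin, had 65.1, 32.7 and 10.4 CPM in RA 3-S and 0, 0.52 and 0.539 CPM in DMSO 3-S libraries, and 4.58, 28.1 and 59 CPM in RA 8-S and 2.47, 0 and 1.42 CPM in DMSO 8-S libraries. fabp3 (ENSDARG00000023290), a carrier of fatty acids, had 151, 141 and 145 CPM in RA 3-S, 7.13, 20.2 and 10.7 CPM in DMSO 3-S and 65.4, 91.3 and 61.8 CPM in NE 3-S libraries. The glycolytic gene gapdh (ENSDARG00000043457), often taken as a reference, had 118, 180.4 and 154 CPM in RA 3-S and 64.2, 56 and 54.2 CPM in DMSO 3-S libraries. That these did not overlap was required by the choice, as in every member. The other enzymes differed by 1.16 to 2.81 at 3-S. A role was not assigned to the remaining 82 members. The largest difference among them was that of ndrg1a (ENSDARG00000032849), with 151, 164 and 60.1 CPM in RA 3-S, 9.08, 1.87 and 4.53 CPM in DMSO 3-S, 29.7, 89 and 327 CPM in RA 8-S and 2.86, 1.42 and 2.73 CPM in DMSO 8-S libraries. Its difference was larger at 8-S, where replicate 3 was the highest. Though given no role here, ndrg1a was 1 of the 2 members on the list of pancreatic and endodermal regulators. The paper reports that RA induces it and that its loci held no RAR site.

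**Figure D3:**
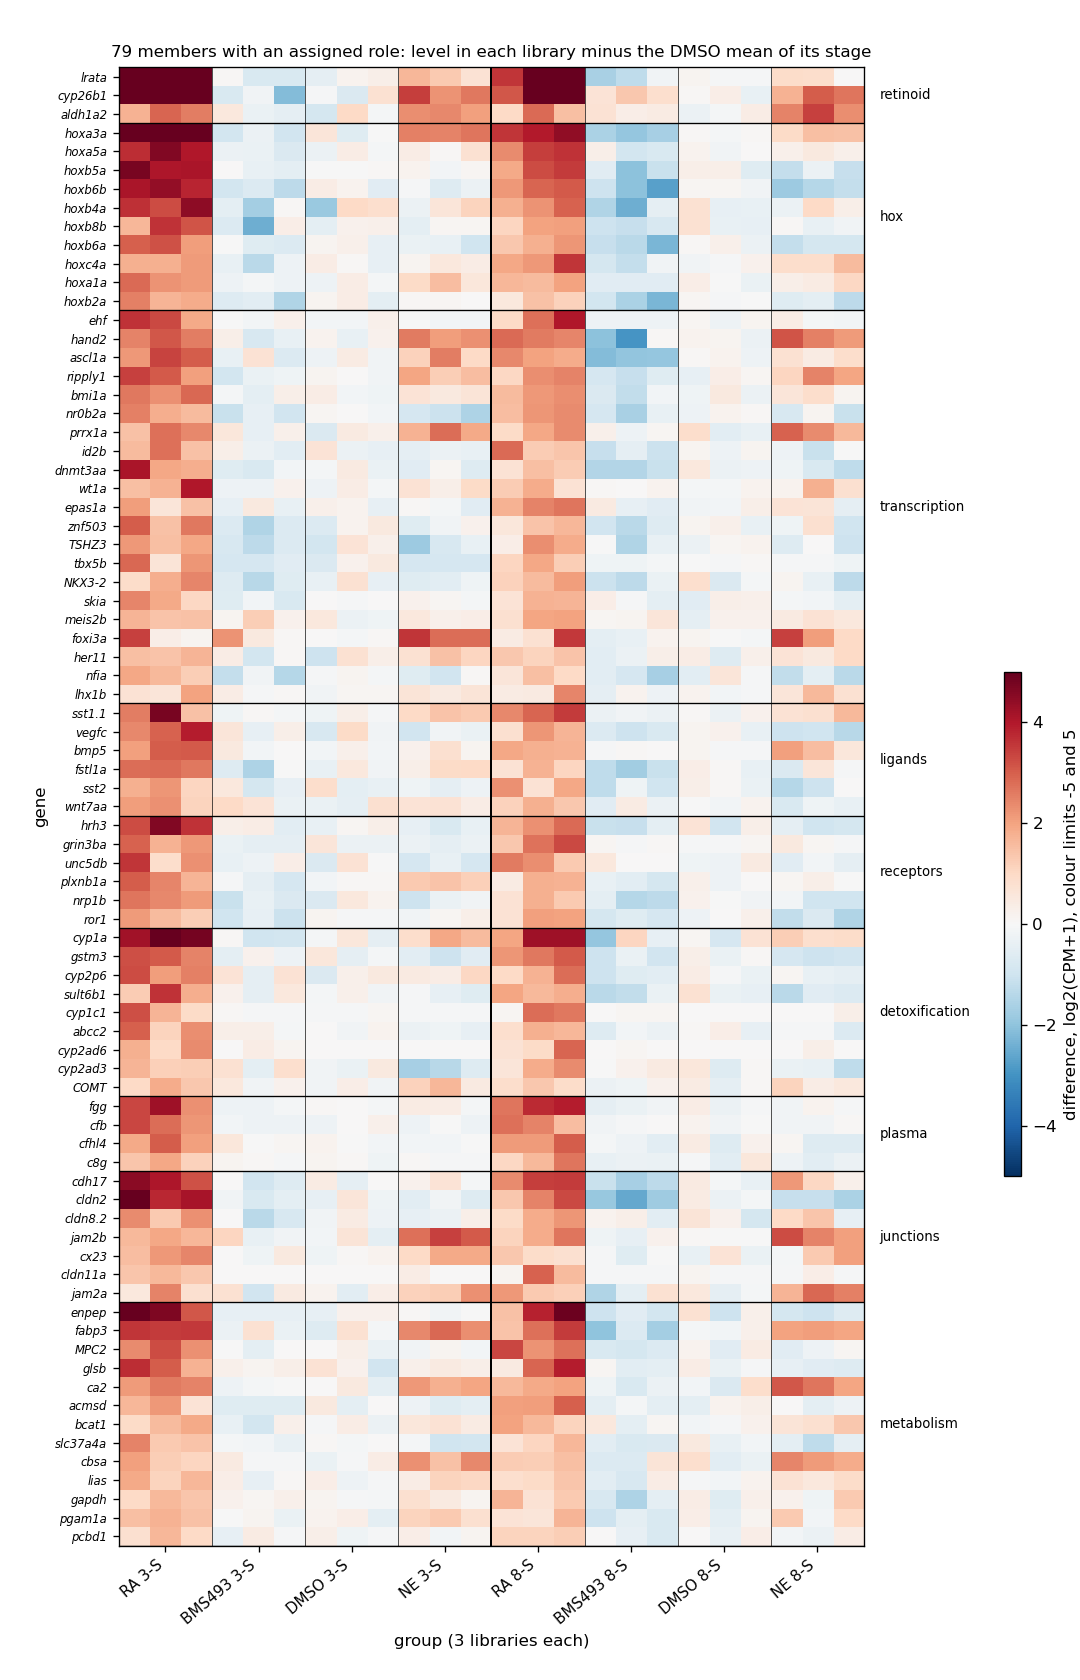
Level of 79 of the 80 members with an assigned role in each library, minus the mean of the 3 DMSO libraries of the same stage, on the log2(CPM+1) scale, with genes in rows by role and 3 libraries per group in columns. RA columns are raised throughout by the choice of members, the first RA 8-S column is paler than the other 2, and NE columns are raised only for some rows, such as cyp26b1, aldh1a2, hand2, jam2b and fabp3.

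On average over the stages, 29 members were higher by at least 1 in NE cells than in DMSO endoderm. The rest lay within 1 of their NE level on that average. At single stages, DMSO exceeded NE by at least 1 in 5 members at 3-S (highest 1.23) and in 8 at 8-S (highest 1.48). NE exceeded DMSO by at least 1 in 36 members at 3-S and in 28 at 8-S. The DMSO minus NE difference averaged over stages ranged from -3.43 to 0.962, with a median of -0.03. For 29 members it was -1 or lower. Every DMSO library lay below every NE library in 46 members at 3-S, against 16.3% of the genes with at least 1 CPM in some group, and in 38 members at 8-S, against 14.6%. As the limit at 1 removed genes of the opposite kind, nothing is read from these shares. The lowest differences were those of arl3l1 (ENSDARG00000028846) (-3.43), jam2b (-2.85), si:dkey-25e11.10 (ENSDARG00000092988) (-2.84), pcolcea (ENSDARG00000056913) (-2.79) and cyp26b1 (-2.63). Over the 29 genes the median RA minus NE difference was 0.42 at 3-S and 0.11 at 8-S, with 19 genes above and 10 below 0 on average. Single genes differed widely on that average, from -1.27 in pcolcea to 3.14 in ndrg1a. The limits that chose the members and the split at -1 shape these values. arl3l1, a small GTPase of the Arl family, had 6.03, 38.3 and 19 CPM in RA 3-S, 0.081, 0.104 and 0.216 CPM in DMSO 3-S and 17.1, 9.98 and 9.68 CPM in NE 3-S libraries. pcolcea, which promotes collagen maturation, stayed lower, with 2.64, 4.52 and 8.16 CPM in RA 3-S, 1.94, 0.416 and 1.19 CPM in DMSO 3-S and 8.6, 9.15 and 10.8 CPM in NE 3-S libraries. In 6 of the 29, all RA libraries lay above all NE libraries at both stages. The share of all genes at both stages was not computed. It cannot exceed the 8-S share, 11.1% of the genes with at least 1 CPM in some group. The same limits shape this count, and nothing is read from it.

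In the other 133 members the RA minus NE difference had a median of 1.99 at 3-S and 1.83 at 8-S, and its being positive on average follows from the limits that chose them. Over all 162 members, every RA library lay above every NE library in 131 genes at 3-S, against 13.7% of the genes with at least 1 CPM in some group, and in 118 at 8-S, against 11.1%. At both stages it did so in 113, where the share over all genes was not computed but cannot exceed 11.1%. These counts are shaped by the same limits, and nothing is read from them. The largest RA minus NE differences were those of lrata (5.22), enpep (4.37), hoxb6b (4.31), cldn2 (4.25) and hoxb5a (3.996). NE cells were taken from DMSO-treated embryos only, so that the response of NE cells to RA was not measured.

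**Figure D4:**
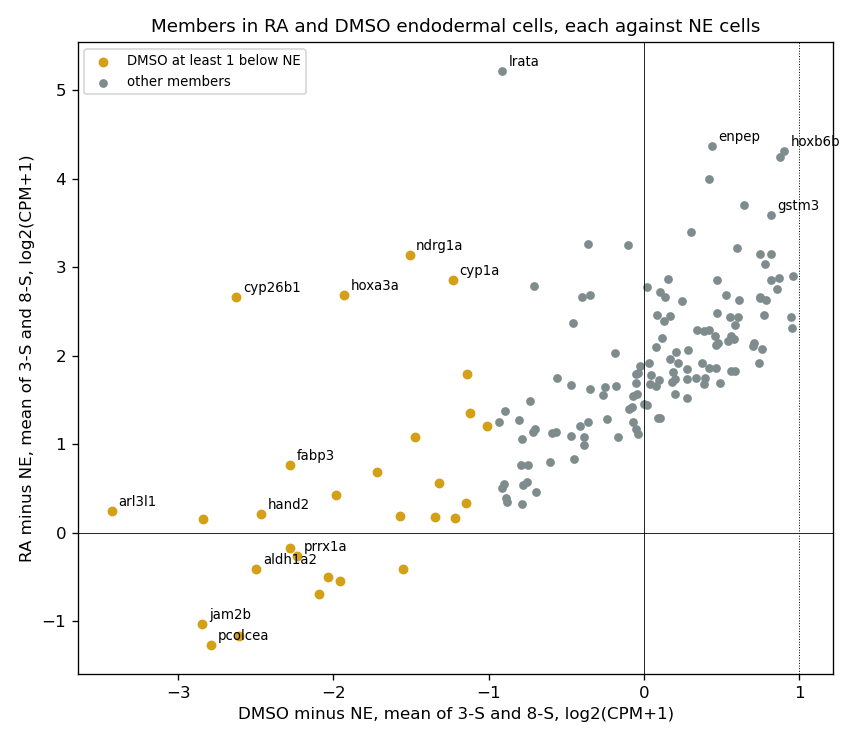
DMSO minus NE difference (horizontal axis) and RA minus NE difference (vertical axis) of each member, both averaged over 3-S and 8-S on the log2(CPM+1) scale, with the limit at 1 dotted. The 29 members at -1 or below on the horizontal axis spread around 0 on the vertical axis, from -1.27 in pcolcea to 3.14 in ndrg1a.

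With BMS493 the members were on the whole near their DMSO level at 3-S and below it at 8-S. This comparison shares the DMSO libraries with the choice of members, and members lowered at both stages had been removed, so that its values are descriptions. The median BMS493 minus DMSO difference was -0.11 at 3-S (quartiles -0.48 and 0.15) and -0.38 at 8-S (quartiles -0.83 and -0.13), against 0.03 and -0.07 over the genes with at least 1 CPM in some group. The size at 8-S depended on the scale, with a median of -0.81 at a pseudocount of 0.1 and of -0.71 as the log2 fold change of the DESeq2 fit. 103 members were below 0 at 3-S and 135 at 8-S. A difference of -1 or lower was found in 3 members at 3-S, against 1.52% of those genes, and in 26 at 8-S, against 1.98%. Every BMS493 library lay below every DMSO library in 21 members at 3-S, against 3.48%, and in 49 at 8-S, against 6.01%. In the fit over all genes, 0 members were called at 3-S (DESeq2 and edgeR, adjusted p under 0.01), where 29 had an unadjusted p under 0.05 by each tool and 0.173% of all genes tested were called lower. At 8-S 6 were called lower by DESeq2, against 0.381% of all genes tested, and 0 by edgeR, where 45 had an unadjusted p under 0.05.

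The members lowest with BMS493 at 8-S included hox, junction and transcription factor genes. cldn2 had 0.564, 0 and 0.698 CPM in BMS493 8-S and 6.76, 3.78 and 4.45 CPM in DMSO 8-S libraries, a difference of -2.08 after -0.49 at 3-S. ascl1a had 0.226, 0.388 and 0.419 CPM in BMS493 8-S and 4.68, 5.2 and 3.64 CPM in DMSO 8-S libraries. hoxa3a had 8.68, 6.67 and 8.1 CPM in BMS493 8-S and 29, 25.9 and 29.3 CPM in DMSO 8-S libraries, and differed by -0.72 at 3-S and -1.73 at 8-S. In all 10 hox members BMS493 was below DMSO at both stages, with medians of -0.68 at 3-S and -1.35 at 8-S, and 6 of them reached -1 at 8-S. lrata differed by -0.50 at 3-S and -1.03 at 8-S. By contrast, cyp26b1 had 2.64, 4.55 and 0.389 CPM in BMS493 3-S and 5.02, 2.81 and 9.48 CPM in DMSO 3-S libraries, but 4.74, 7.99 and 5.37 CPM in BMS493 8-S and 2.73, 3.43 and 1.72 CPM in DMSO 8-S libraries. It lay above DMSO in every BMS493 library at 8-S. The plasma protein genes stayed between -0.22 and 0.22 at 3-S, where their DMSO level was too low for a fall to be detectable at this depth.

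No condition was set on the change of the members with stage within a cell group, and this change was tested. The libraries are those used for the choice, which required RA to be above DMSO at both stages. Genes whose RA and DMSO levels met at 1 stage were thus left out. The stage results in RA and DMSO cells are therefore not independent of the choice. In DMSO endoderm 119 of the 162 had a log2 fold change above 0 at 8-S against 3-S, with a median of 0.47 in the DESeq2 fit, against -0.01 over all genes tested. On the log2(CPM+1) scale the median was 0.30, against 0.08 over genes with at least 1 CPM in some group. Every DMSO 8-S library lay above every DMSO 3-S library in 34 members, against 10.2% of those genes, and below them in 5, against 3.55%. Only 1 of the 157 members tested passed an adjusted p of 0.01 (DESeq2), against 0.291% of all genes tested, and 34 had an unadjusted p under 0.05. That gene, si:dkey-25e11.10, had 4.68, 1.89 and 2.43 CPM in DMSO 8-S and 0.567, 0.52 and 0.108 CPM in DMSO 3-S libraries, log2 fold change 2.73 (SE 0.57, DESeq2 adjusted p = 0.00167). Its DMSO 3-S level was near the counting limit, and in replicate 3 it rested on 1 count. By the quasi-likelihood test of edgeR 0 members were called, with 29 at an unadjusted p under 0.05, and the adjusted p of this gene was 0.104. By DESeq2 its adjusted p was 0.0358 without replicate 1, 0.0136 without replicate 2 and 0.153 without replicate 3, so that its call needed all 3 replicates, while its log2 fold change was 2.78, 3.09 and 2.41 in these 3 fits and 2.67 by edgeR. hoxa3a had 29, 25.9 and 29.3 CPM in DMSO 8-S and 15.8, 6.25 and 9.81 CPM in DMSO 3-S libraries, log2 fold change 1.27 (SE 0.33, DESeq2 adjusted p = 0.0314), which missed the threshold but passed it without replicate 1 (DESeq2 adjusted p = 0.00142), and si:dkey-196j8.2 had 2.43 (SE 0.58, DESeq2 adjusted p = 0.0107), and 0.0073 without replicate 1.

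In RA, BMS493 and NE cells no member was called with all replicates in the fit (DESeq2, adjusted p under 0.01). In RA cells, with 160 members tested, the median log2 fold change of 8-S against 3-S was -0.01, 80 members lay above and 82 below 0, 0 passed an adjusted p of 0.01 (DESeq2), against 0.0956% of all genes tested, and 11 had an unadjusted p under 0.05. The lowest p-values were those of znf503, with 91.4, 165 and 195 CPM in RA 8-S and 622, 210.3 and 479 CPM in RA 3-S libraries and log2 fold change -1.51 (SE 0.41, DESeq2 adjusted p = 0.0513), and of gadd45ab (ENSDARG00000069991), a stress-response gene, with 39.6, 52.4 and 38 CPM in RA 8-S and 53.1, 111 and 111 CPM in RA 3-S libraries and -1.04 (SE 0.28, DESeq2 adjusted p = 0.0513). Without replicate 1, 2 members were called, among them gadd45ab (DESeq2 adjusted p = 0.00461), and without replicate 2 there were 2 calls, among them znf503 (DESeq2 adjusted p = 0.00501). Calls over all genes rose as well, from 15 with all replicates to 67 without replicate 1 and 172 without replicate 2. edgeR called 0, with 10 at an unadjusted p under 0.05. In BMS493 cells 81 members lay above and 80 below 0, and 0 of 150 members tested were called, with 13 at an unadjusted p under 0.05, and in NE cells the median was 0.26 and 0 of 162 were called, with 13 at an unadjusted p under 0.05 (DESeq2 and edgeR, adjusted p under 0.01). 8-S libraries all lay above 3-S ones in 6 members in RA, 6 in BMS493 and 19 in NE cells, against 4.85%, 5.36% and 7.89% of the genes with at least 1 CPM in some group, and below them in 9, 7 and 6 members, against 7.25%, 4.26% and 3.98%. Of all genes tested, 0.0214% and 0.0141% were called in these groups. The difference of the RA effect between stages, tested as an interaction, gave 0 calls among the 162, against 0.0105% of all genes tested, with 15 at an unadjusted p under 0.05 and 0 calls by edgeR. Its median was -0.46, and its lowest value of p was that of si:dkey-25e11.10, -3.16 (SE 0.68, DESeq2 adjusted p = 0.0171). The condition that RA be at least 1 above DMSO at both stages narrows this test.

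**Figure D5:**
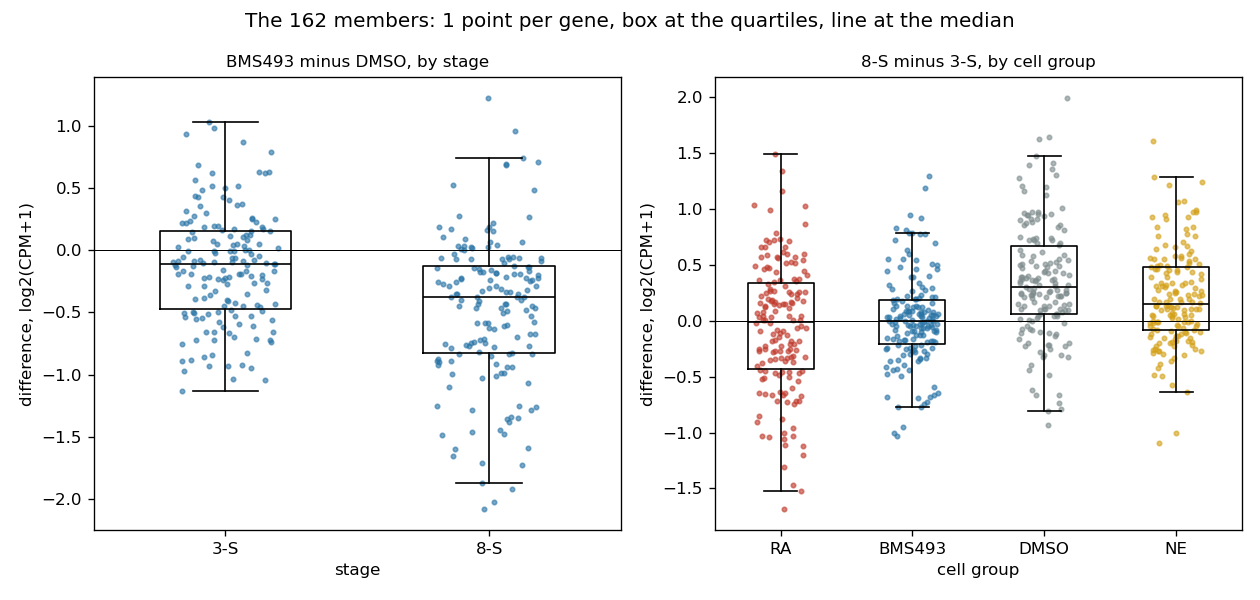
Left, BMS493 minus DMSO difference of the 162 members at 3-S and at 8-S, and right, 8-S minus 3-S difference in RA, BMS493, DMSO and NE cells, each on the log2(CPM+1) scale with 1 point per gene, a box at the quartiles and a line at the median. The medians are -0.11 and -0.38 on the left, and -0.01, -0.01, 0.30 and 0.15 for RA, BMS493, DMSO and NE cells on the right.

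Some members are neighbours in the genome. Of the 162, 139 could be placed in the order of protein-coding genes of the RefSeq annotation of assembly GRCz12tu, over 25 chromosomes. In that order 16 pairs had at most 2 other protein-coding genes between them and 9 were next to each other. The number expected for as many genes placed at random was not computed, and nothing is read from these counts. Of the 16 pairs, 6 were of hox genes, on chromosomes 3, 12 and 19. The others included lrata next to fgg on chromosome 1, cyp2ad3 next to cyp2p6 with cyp2ad6 nearby on chromosome 20, cldn11a (ENSDARG00000020031) next to grin3ba on chromosome 2, htra4 (ENSDARG00000005943) next to unc5db on chromosome 5, and ripply1 near cldn2 on chromosome 21. Among these pairs, lrata and fgg differed by -0.92 and -0.10 in DMSO minus NE and by -1.03 and -0.33 in BMS493 minus DMSO at 8-S, and ripply1 and cldn2 differed by -1.72 and 0.87 in DMSO minus NE. Other neighbours lay closer together, with 0.75 for htra4 and 0.53 for unc5db and -0.10 for cldn11a and 0.09 for grin3ba. Levels of cldn11a and grin3ba were mostly near the counting limit, with at most 0.13 and 1.05 CPM in any DMSO library. In NE libraries they reached at most 0.32 and 0.43 CPM, so that nothing is read from their closeness. Reads that fall where genes overlap can be missing from counts made without regard to strand. In 4 members, sst2, zgc:112994 (ENSDARG00000026296), hoxb8b and si:dkey-81p22.11 (ENSDARG00000093797), the strand-specific counts summed to well over the count used here, so that their values are uncertain. Counts of paralogues that share sequence, such as the cyp2 genes, may likewise be uncertain.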

How the data were processed

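RNA of FACS-sorted Tg(sox17:GFP) cells was amplified by SMART-seq2, made into Nextera XT libraries and sequenced single-end. The authors aligned reads with STAR 2.5.4 to Zv9 with Ensembl gene models, and deposited raw read counts per gene, in an unstranded and in both strand-specific columns. The unstranded column was used here. The 4 leading rows that name no gene and the most abundant gene were left out of CPM, and 1 CPM was added before the log2. Stage contrasts and the RA by stage interaction were tested with DESeq2 1.42.0 (Wald test, 1 fit over 24 libraries with the group as the term, default independent filtering, Benjamini-Hochberg over all genes, threshold 0.01), with edgeR 4.0.16 as an alternative, both tested on simulated data. Further alternatives were TMM and DESeq2 size factors, pseudocounts of 0.5 and 0.1, a count filter, strand-specific counts, the dominant gene kept in the total, a replicate block and leaving out each replicate. Leaving out RA replicate 1 of 1 stage alone was added after seeing the data.

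Symbols came from a gene table, and for 16 members from the study. Sequences were not analysed here. 1 gene is not reported here. Genes named are those on the function lists, those with the largest differences, those next to the limits and those with the lowest p or the most extreme difference from NE or with BMS493. Other genes named under each role and among the markers were chosen after their values were seen. The members and lists were chosen with earlier results of these data known, and the roles were assigned after the members were seen.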

Additional observations from a re-analysis of the deposited data

Results flagged for a closer look

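oaz2b (ENSDARG00000059815), an antizyme gene that curbs polyamine synthesis, stood out because BMS493 and DMSO libraries did not overlap at either stage, in opposite directions. The BMS493 minus DMSO difference was 0.63 at 3-S and -0.45 at 8-S on the log2(CPM+1) scale. For the same reason, the 8-S minus 3-S difference was -0.59 in BMS493 cells and 0.49 in DMSO cells, from the same 12 libraries. The difference was not tested. All of these libraries lay below 1.5 CPM, and several held 3 counts or fewer.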

How the results depend on the processing

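The number of members depended most on replicate 1. The rule gave 162 genes, and 156 to 309 when 1 replicate was left out of every group, 260 without RA 8-S replicate 1 alone, and 157 to 198 under the other scalings, pseudocounts and columns. With a pseudocount of 0.1 the median RA difference of the 162 was 2.78 (3-S) and 2.13 (8-S), and the median BMS493 difference at 8-S was -0.81. The median at 3-S was 1.87 without RA 3-S replicate 1, and 1.89 to 2.03 with 1 replicate left out of every group. TMM and DESeq2 size factors moved none of the 324 single RA differences beyond the spread between replicates. The DMSO stage count of 1 member was 0 by edgeR (0 genes in all), 0 to 2 with 1 replicate left out (7 to 102 genes in all) and 5 at an adjusted p under 0.05 (92 genes in all). The RA stage count of 0 was 0 to 2 with 1 replicate left out (1 to 172 genes in all). The interaction count of 0 was 1 at an adjusted p under 0.05 (5 genes in all). Among single genes, the log2 fold change of si:dkey-81p22.11 in BMS493 cells (8-S against 3-S) was -0.19 with strand-specific counts, against 1.42 with the counts used. Apart from the pseudocount, the strand-specific columns and the fewer samples, the causes were not tested. The labels tie replicate numbers to no shared clutch or day. The deviations of same-numbered samples from their group means had correlations of -0.50 to -0.14 between stages in RA, -0.40 to -0.17 in DMSO, -0.28 to 0.60 in BMS493 and -0.14 to 0.17 in NE cells, and of -0.23 to 0.26 at 3-S and 0.058 to 0.21 at 8-S between RA and DMSO cells, so that in none of these comparisons did every pair exceed 0.1. With the number as a replicate block, the interaction called 1 member of 3 genes in all, si:dkey-25e11.10 (DESeq2 adjusted p = 0.00969). The stage counts in RA, DMSO, BMS493 and NE cells were 0, 1, 0 and 0, of 8, 45, 4 and 4 genes in all. Counting depth limits the 45 members under 1 CPM on average in DMSO cells at both stages.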
